A study of Mus musculus with 10 samples.

Results

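The Ikaros family comprises 5 zinc finger transcription factor genes: *Ikzf1* (Ikaros), *Ikzf2* (Helios), *Ikzf3* (Aiolos), *Ikzf4* (Eos) and *Ikzf5* (Pegasus). They were chosen by gene symbol, with earlier results of these data known, and are 5 of the 48321 symbols in the count files. Each has a row in all 10 libraries, and all 5 passed the filter on low counts. RNA-seq was performed on spleen CD4+ T cells of C57BL/6 mice, sorted by a GFP reporter of *Foxp3*, read here as FoxP3, and by the IL-2 receptor chain CD25. The mice were WT or carried floxed *Satb1* alleles with *Thpok-cre* (*Satb1* F/F; *Thpok-cre*, called KO), which acts after commitment to the CD4 lineage, so that Tregs and other CD4+ cells are targeted alike. *Satb1* encodes a genome organizer of T cells. The 5 sorted groups held 2 libraries each: WT FoxP3+CD25+ and KO FoxP3+CD25+ cells (Tregs), WT FoxP3-CD25- and KO FoxP3-CD25- cells (non-Tregs), and KO FoxP3+CD25- cells, which express the reporter without CD25. The mice were untreated young adults of mixed sexes. The WT replicates came from different mice, since they differed in sex, as shown by *Xist* and Y-linked genes. The labels number the KO replicates as if each number were a mouse but do not state it, so their spread may be technical. In the sources used here it is not given whether WT mice carried Cre or floxed alleles.

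Proteins of this family bind DNA through zinc fingers near their N-terminus and pair with each other through fingers at their C-terminus. They can repress or activate genes, in part by recruiting chromatin remodelling and corepressor complexes. Ikaros and Aiolos are known for their roles in lymphocyte development, Helios and Eos for their expression in Tregs, where Eos can act as a corepressor with FoxP3, and Pegasus is the most divergent member.

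The DNA-binding finger below is a stretch in which *Ikzf1* to *Ikzf4* are readily compared, and it shows how far reads of 1 member could be taken for another. Sequences are from GRCm38 with the GENCODE annotation, written 5′ to 3′ on the coding strand, and capitals mark the codons of the Cys and His residues that hold the zinc ion. For *Ikzf1* to *Ikzf4* it is the second finger. The coding sequence of *Ikzf5* has 3 rather than 4 fingers in its first part. Its first finger is printed, picked among those of the same length as the closest match to the second finger of *Ikzf1*. It need not be the counterpart of that finger. All 5 stretches are coding exon sequence, each within 1 exon.
*Ikzf1* (chr11:11754024-11754086, plus strand): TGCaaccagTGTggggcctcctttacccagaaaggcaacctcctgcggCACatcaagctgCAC
*Ikzf2* (chr1:69570581-69570643, minus strand): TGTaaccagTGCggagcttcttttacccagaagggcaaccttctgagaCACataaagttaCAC
*Ikzf3* (chr11:98488940-98489002, minus strand): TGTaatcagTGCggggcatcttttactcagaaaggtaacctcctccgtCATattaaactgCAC
*Ikzf4* (chr10:128640229-128640291, minus strand): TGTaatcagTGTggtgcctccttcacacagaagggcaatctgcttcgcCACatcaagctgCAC
*Ikzf5* (chr7:131393759-131393821, minus strand): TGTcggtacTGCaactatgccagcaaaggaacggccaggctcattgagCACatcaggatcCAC

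Over these 63 bases, identity with *Ikzf1* was 81.0% for *Ikzf2*, 81.0% for *Ikzf3* and 84.1% for *Ikzf4*. For *Ikzf5* it was 46.0%, a value not comparable with the others if these fingers are not counterparts. The longest run shared by the coding sequences of *Ikzf1* and *Ikzf5*, 12 bases, lay in finger 3 of *Ikzf1* and finger 1 of *Ikzf5*.

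No stretch of 50 bases, the read length, occurred in the transcripts of more than 1 member. The longest run shared by the coding sequences of any pair was 26 bases, in *Ikzf1* and *Ikzf3*. Overlap with neighbouring genes was the larger limit. *Ikzf1* (chromosome 11, 11685003 to 11772926, plus strand) and *Ikzf3* (chromosome 11, 98464902 to 98546031, minus strand) shared no exon base with another gene. *Ikzf2* (chromosome 1, 69531214 to 69687245, minus strand) shared 144 exon bases with *Gm29114* and *Ikzf4* (chromosome 10, 128630843 to 128645991, minus strand) shared 37 with *Gm26876*. *Ikzf5* (chromosome 7, 131388652 to 131410521, minus strand) shared 84.5% of its exon bases, mostly with *Pstk* on the opposite strand. The strand setting of the counting is not given in the sources used here, so reads of *Ikzf5* and *Pstk* cannot be told apart and the *Ikzf5* values are uncertain.

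Reads counted on genes ranged from 6094952 to 12410064 per library. Levels are given as CPM, read counts scaled to library size with TMM factors. The test was edgeR's quasi-likelihood F-test in 1 model of all libraries, and a gene was called at a Benjamini-Hochberg FDR under 0.05 over all 13796 genes tested. Both libraries of WT replicate 1 stood apart by sex, with at least 14487 counts of *Xist* and 0 counts over 4 Y-linked genes, against at most 4 counts and at least 3039 counts in the 8 other libraries. Results that lose their call without them are marked as such. Gene counts of *Satb1* were not consistently lower in the libraries labelled KO. They were at 598 and 534 CPM in KO against 379 and 478 CPM in WT FoxP3+CD25+ cells. In FoxP3-CD25- cells they were at 841 and 682 CPM in KO against 818 and 881 CPM in WT. These counts do not resolve the floxed exons, so they do not check the labels. *Il2ra*, which encodes CD25, was at 627 to 760 CPM in FoxP3+CD25+ cells, 16.7 and 16.8 CPM in KO FoxP3+CD25- cells and 1.55 to 11.4 CPM in FoxP3-CD25- cells, in the order of the sort. *Cd4* was at 711 to 1145 CPM in all 10 libraries, *Cd8a* at 0.131 to 4.14 CPM and the myeloid gene *Lyz2* at 0 to 1.53 CPM. Some other genes of these cell types were higher. The summed level of 7 markers of CD8 or NK cells was 26.2 to 91.0 CPM, and that of 8 myeloid markers 17.6 to 25.1 CPM.

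WT Tregs and non-Tregs differed in 4 of the 5 members, where 10.9% of all genes tested were called. *Ikzf2* and *Ikzf4* were 17.0-fold and 15.7-fold higher in Tregs, *Ikzf3* was 1.57-fold higher, and *Ikzf1* was 1.73-fold lower. The log2 fold change of *Ikzf5* was −0.06 (SE 0.12, FDR = 0.843). The same 4 members were called in the same directions between KO Tregs and KO non-Tregs, where 6.34% of genes were called. KO FoxP3+CD25- cells had 1 member called against KO non-Tregs (1.67% of genes called), 3 against KO Tregs (7.01%), 2 against WT non-Tregs (0.768%) and 3 against WT Tregs (11.2%). These comparisons share libraries and are not independent. KO and WT cells of the same sort differed in no member by this test. In Tregs 0.00725% of genes were called and 592 genes had an unadjusted p under 0.05, and in non-Tregs 0.145% were called and 1106 genes had such a p. No member was among those 592 genes in Tregs, and *Ikzf2* and *Ikzf3* were among the 1106 in non-Tregs.

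**Figure D1:**
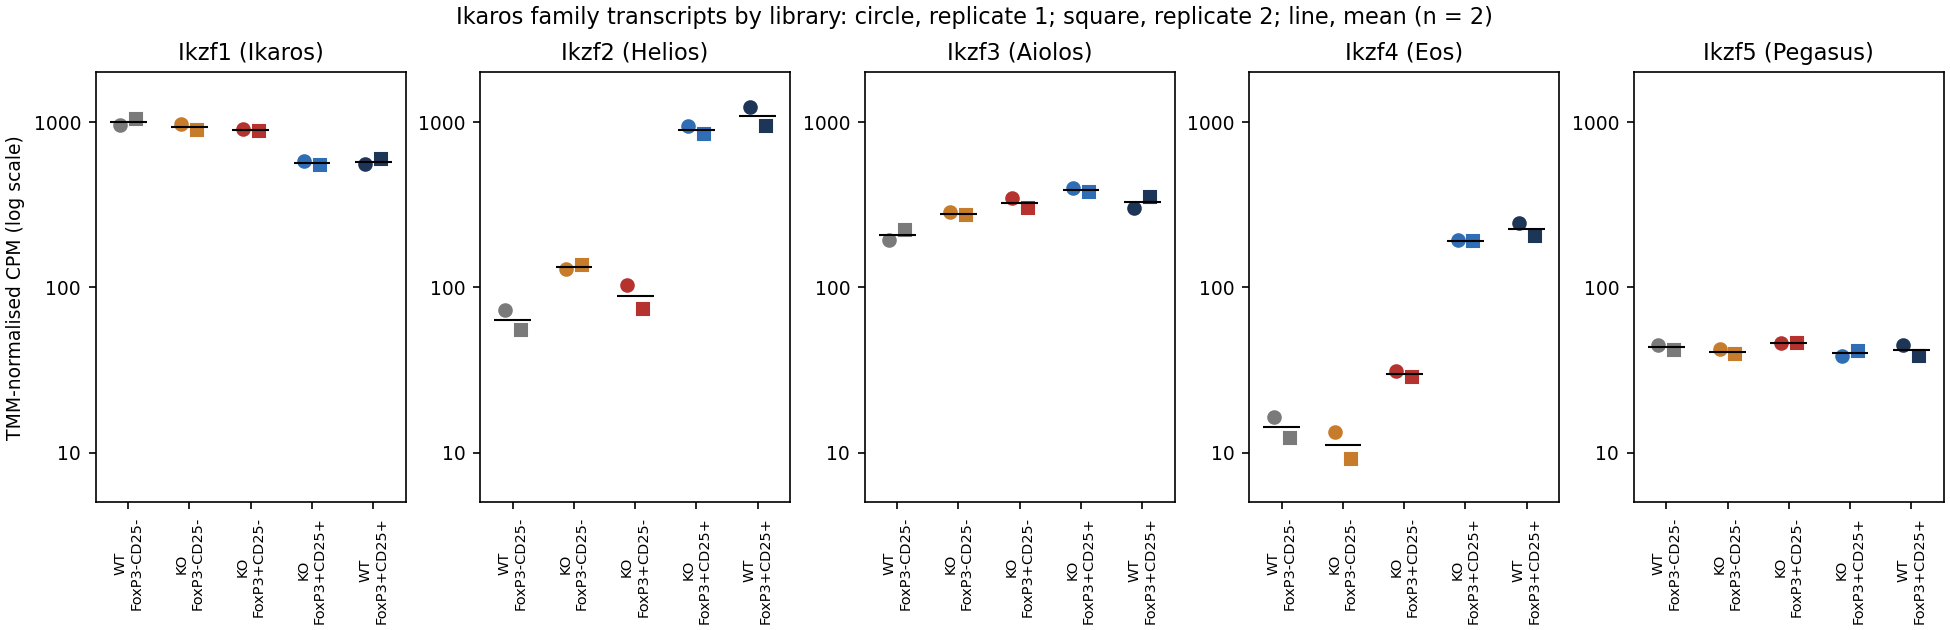
CPM of each Ikaros family gene on a log scale (y axis) in the 5 sorted groups (x axis), with replicate 1 as a circle, replicate 2 as a square and the mean of 2 libraries as a line. *Ikzf2* and *Ikzf4* were high in the 4 FoxP3+CD25+ libraries, *Ikzf1* was low there, and *Ikzf5* stayed between 38.3 and 46.3 CPM.

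Of the members known for Treg expression, *Ikzf2* had the highest count of the family in Tregs, with 1235 and 939 CPM in WT replicates 1 and 2 and 944 and 848 CPM in KO. In WT non-Tregs it was at 72.5 and 55.1 CPM, in KO non-Tregs at 129 and 136 CPM, and in KO FoxP3+CD25- cells at 103 and 74.2 CPM. The 4 Treg libraries thus lay far above the 6 others, the KO non-Treg libraries lay above both WT non-Treg libraries, and the KO FoxP3+CD25- libraries lay between these groups, with replicate 2 just above the higher WT non-Treg library. With 2 libraries a group, such an order is a description, here and for the other members. How many of all genes separate groups in this way was not counted, and WT replicate 1 differed in sex from the KO libraries. Group means ran from 1087 ± 209 CPM (SD, n = 2) in WT Tregs through 896 ± 68.1 in KO Tregs, 133 ± 5.22 in KO non-Tregs and 88.4 ± 20.1 in KO FoxP3+CD25- cells to 63.8 ± 12.3 in WT non-Tregs. In this order only the step from KO Tregs to KO non-Tregs was called.

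The log2 fold change of *Ikzf2* from non-Tregs to Tregs was 4.09 in WT (SE 0.21, FDR = 1.55e-06) and 2.76 in KO (SE 0.20, FDR = 2.92e-05). The KO change was the smaller, by −1.33 as KO minus WT on the log2 scale (SE 0.26, 95% interval −1.91 to −0.75, unadjusted p = 0.000384). This difference ranked 10 of 13796 genes by p and was not called (FDR = 0.476, 0% of genes called by edgeR's quasi-likelihood test and 685 with an unadjusted p under 0.05). With the mouse as a block the difference was −1.34 and was called (FDR = 0.00414, 1.07% of genes called). Over 21 alternative settings its FDR ranged from 0.000918 to 1, and it was called in 6, among them the fit without WT FoxP3+CD25+ replicate 2 (−1.53, FDR = 0.0384). From WT to KO the log2 fold change was 1.05 in non-Tregs (SE 0.19, FDR = 0.0806) and −0.28 in Tregs (SE 0.18, 95% interval −0.68 to 0.12, FDR = 1). The non-Treg value was called in 8 of 20 alternatives, with FDR from 2.2e-05 to 0.471, among them the fits without WT FoxP3+CD25+ replicate 1 (FDR = 0.0353) and without replicate 2 (FDR = 0.0339).

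KO and WT non-Tregs also had different summed levels of cell type markers, whose part in the *Ikzf2* values was not tested. The summed level of 9 Treg markers was 416 to 421 CPM there against 220 to 332 CPM in WT non-Tregs. The summed level of 5 markers of memory or activated T cells was 296 to 336 CPM against 145 to 236 CPM, and that of 6 markers of follicular helper cells 254 to 305 CPM against 172 to 195 CPM. B cell markers (8 genes) summed to 24.2 to 29.1 CPM against 14.4 to 17.6 CPM, and markers of CD8 or NK cells (7 genes) to 55.4 to 61.9 CPM against 72.4 to 91.0 CPM. The groups did not overlap in any of these 5 sums. They also did not overlap in the sum of 4 naive T cell markers, 2753 to 2791 CPM in KO against 2925 to 2941 CPM in WT. The sums of T cell, myeloid and erythroid markers overlapped. With 2 libraries a group, such a separation is a description and not a test. Of the single genes in all these lists, only *Prf1*, a CD8 and NK cell marker, was called between KO and WT non-Tregs. It was lower in KO, at 20.2 and 23.3 CPM against 53.3 and 52.7 CPM in WT. Of the CD8 or NK markers it alone was lower in both KO than in both WT libraries. *Cd8b1* and *Klrb1c* were higher in both KO libraries, so the lower sum does not describe these markers as a set. In bulk samples a change in the share of a cell type and a change in RNA per cell cannot be told apart. *Foxp3* itself was at 38.9 and 19.5 CPM in KO non-Tregs and at 18.6 and 18.0 CPM in WT non-Tregs.

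In KO FoxP3+CD25- cells *Ikzf2* was 10.2-fold lower than in KO Tregs (log2 fold change −3.35, SE 0.20, FDR = 9.4e-06). Against KO non-Tregs its log2 value was −0.59 (SE 0.19, FDR = 0.207), with the lower value in FoxP3+CD25- cells of both replicate numbers. With the mouse as a block this was −0.61 and was called (FDR = 0.00926, 5.7% of genes called, 2 members in all). *Foxp3* in the same libraries was at 361 and 318 CPM, far above either KO non-Treg library. The KO FoxP3+CD25- libraries thus had more *Foxp3* and less *Ikzf2* than the KO non-Tregs of the same number. Against WT non-Tregs the log2 fold change of *Ikzf2* was 0.46 (SE 0.19, FDR = 0.485).

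**Figure D2:**
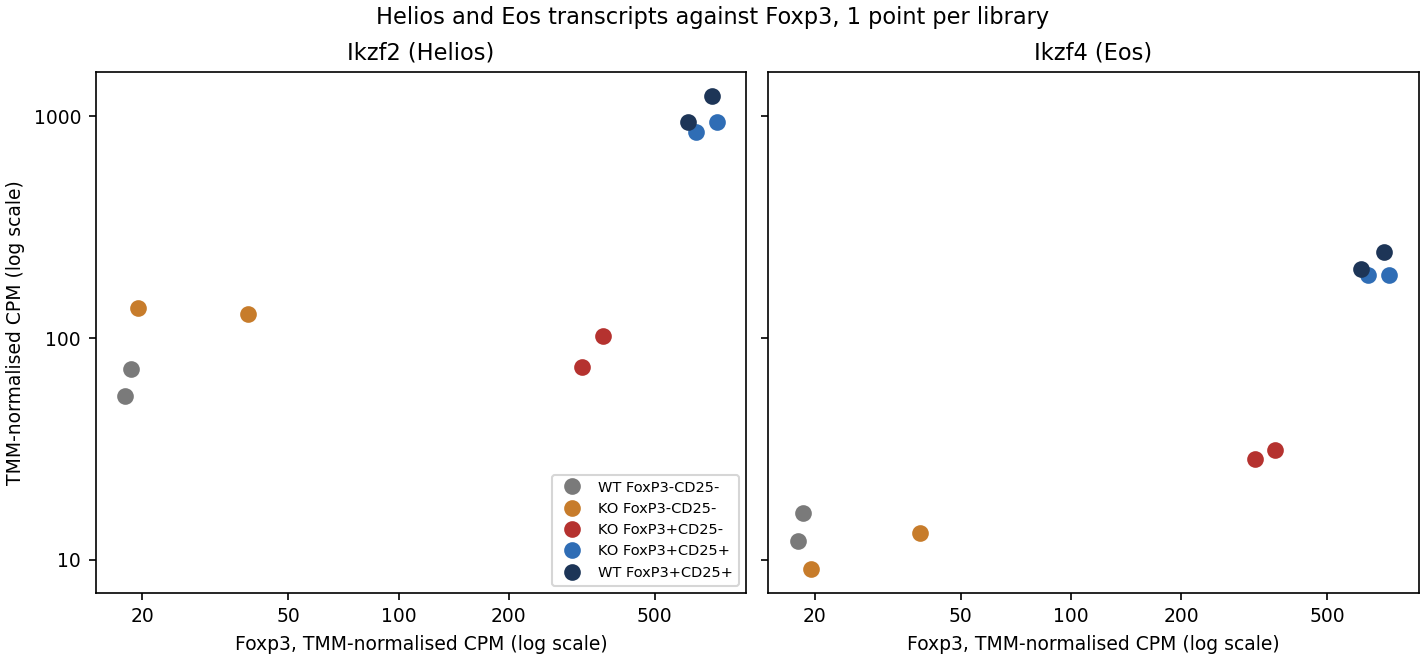
CPM of *Ikzf2* and *Ikzf4* (y axes, log scale) against CPM of *Foxp3* (x axes, log scale), 1 point per library, colored by group. The KO FoxP3+CD25- libraries, at 318 and 361 CPM of *Foxp3*, had *Ikzf2* within the range of the non-Treg libraries and *Ikzf4* above all 4 of them.

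*Gm29114*, an antisense gene that overlaps *Ikzf2*, followed it closely. It had 273 and 208 counts in WT Tregs, 165 and 169 in KO Tregs, and 9 to 28 in the 6 other libraries. Its log2 fold change between WT Tregs and non-Tregs was 4.13 (SE 0.34, FDR = 3.72e-05). With 0.819% of the 50-base stretches of *Ikzf2* in common, how far its counts are reads of *Ikzf2* was not tested.

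*Ikzf4*, the other Treg-associated member, was at 246 and 204 CPM in WT Tregs and at 192 and 192 CPM in KO Tregs. It was at 16.3 and 12.2 CPM in WT non-Tregs and at 13.2 and 9.09 CPM in KO non-Tregs. In KO FoxP3+CD25- cells it was at 31.4 and 28.7 CPM, above all 4 non-Treg libraries and below all 4 Treg libraries. From WT to KO non-Tregs its log2 fold change was −0.37 (SE 0.20, 95% interval −0.82 to 0.07, FDR = 0.713). Its order of group means was WT Tregs (225 ± 29.2 CPM; SD, n = 2), KO Tregs (192 ± 0.388), KO FoxP3+CD25- cells (30.0 ± 1.90), WT non-Tregs (14.2 ± 2.93) and KO non-Tregs (11.2 ± 2.93). The steps on either side of the KO FoxP3+CD25- cells were called and the outer steps were not.

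*Ikzf4* rose from non-Tregs to Tregs by 3.97 on the log2 scale in WT (SE 0.18, FDR = 1.02e-06) and 4.12 in KO (SE 0.20, FDR = 1.42e-06). These changes differed by 0.15 (KO minus WT, SE 0.26, 95% interval −0.42 to 0.71, FDR = 1). In KO FoxP3+CD25- cells *Ikzf4* was 2.71-fold higher than in KO non-Tregs (log2 fold change 1.44, SE 0.20, FDR = 0.00496) and 6.40-fold lower than in KO Tregs (−2.68, SE 0.17, FDR = 1.83e-05). It was the only member called against KO non-Tregs without the mouse block, ranking 53 of 13796 by p, and the call was lost without KO FoxP3-CD25- replicate 2 (1.18, FDR = 0.0636). Against WT non-Tregs its call (FDR = 0.0299) was lost without any 1 of the KO FoxP3+CD25-, WT FoxP3-CD25- or KO FoxP3+CD25+ libraries (6 of 10 such fits, 0.89 to 1.30, FDR up to 0.184) and without both libraries of WT replicate 1 (1.30, FDR = 0.0583).

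Marker levels also set the KO FoxP3+CD25- cells apart. The summed level of the 9 Treg markers was 539 to 703 CPM, against 2858 to 3614 CPM in Tregs. *Foxp3*, on whose reporter the cells were sorted, gave 318 and 361 CPM of it. Without *Foxp3* the other 8 markers summed to 221 to 342 CPM, below the 382 to 396 CPM of KO non-Tregs. Against KO non-Tregs, *Nrp1* (log2 fold change −2.08, SE 0.39, FDR = 0.028) and *Capg* (−0.98, SE 0.21, FDR = 0.0432) were called lower, and *Foxp3* was the only Treg marker called higher. The lower sum did not hold for each marker. *Il2ra*, *Lrrc32*, *Tnfrsf18*, *Itgae* and *Gpr83* had higher values there and *Ctla4* a lower one, none of them called. The median log2 fold change of the 9 Treg markers, *Foxp3* included, was 0.504. Against WT non-Tregs, *Foxp3*, *Il2ra* and *Lrrc32* were called higher and no Treg marker was called lower. Memory or activated markers summed to 28.6 to 32.8 CPM and follicular helper markers to 112 to 129 CPM, both below every other group, and 4 of the 6 follicular helper markers were called lower than in KO non-Tregs. The 4 markers of naive T cells summed to 3009 to 3309 CPM, above every other group (1717 to 2941 CPM). B cell markers summed to 5.58 to 7.27 CPM, below the 14.4 to 35.2 CPM of the other groups, with 3 of 8 at 0 in both libraries. The part of these differences in the *Ikzf4* values was not tested.

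The 2 Treg-associated members kept different proportions in the groups. There were 0.199 to 0.226 *Ikzf4* counts per *Ikzf2* count in the 4 Treg libraries and 0.225 and 0.221 in WT non-Tregs. The ratio was 0.103 and 0.0667 in KO non-Tregs and 0.306 and 0.386 in KO FoxP3+CD25- cells. WT non-Tregs thus matched Tregs within 0.199 to 0.226, KO non-Tregs lay below that range and KO FoxP3+CD25- cells above it, with no overlap. *Ikzf4* counts per *Foxp3* count were 0.0868 and 0.0903 in KO FoxP3+CD25- cells and 0.260 to 0.343 in the 4 Treg libraries. They were 0.340 and 0.466 in KO non-Tregs and 0.876 and 0.678 in WT non-Tregs, the group with the lowest *Foxp3* levels. The ratios are descriptions and were not tested.

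**Figure D3:**
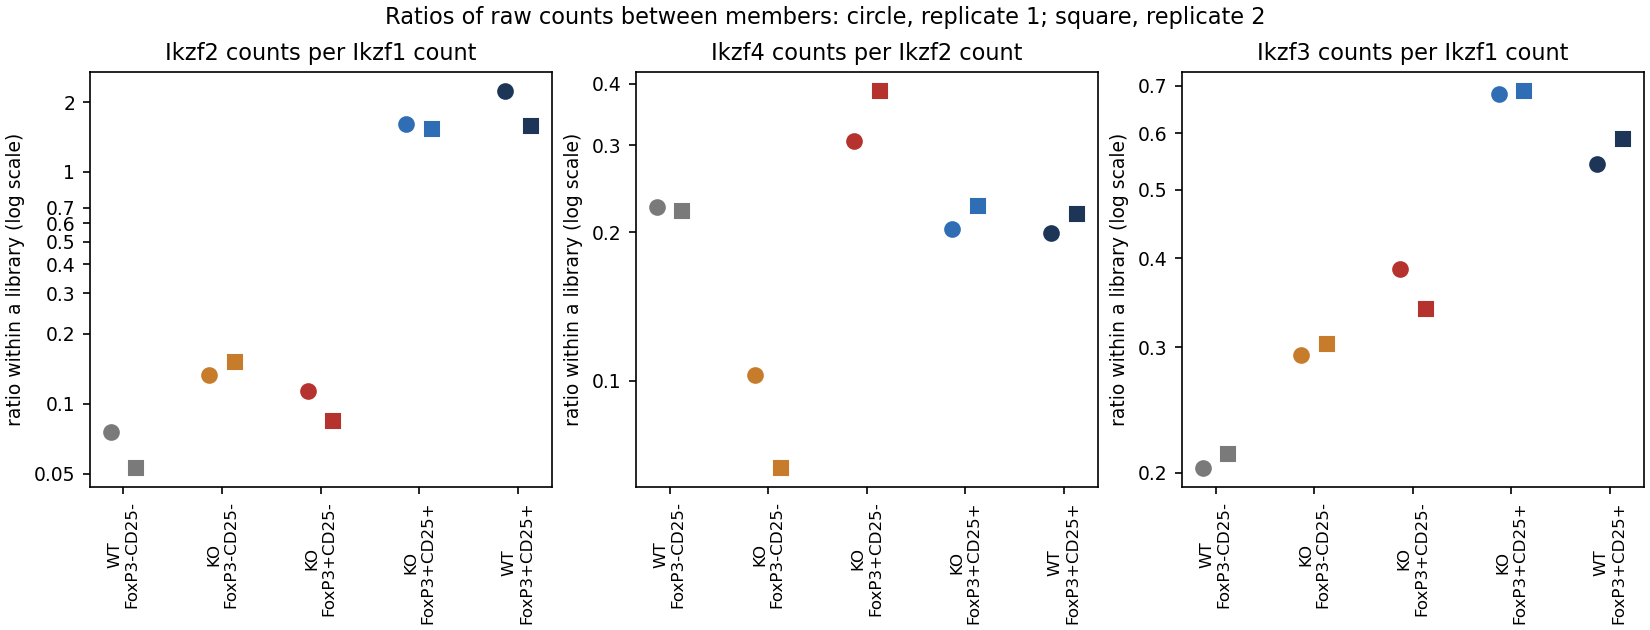
Ratios of raw counts within each library (y axes, log scale) in the 5 groups (x axis), with replicate 1 as a circle and replicate 2 as a square. The *Ikzf4* to *Ikzf2* ratio was 0.306 and 0.386 in KO FoxP3+CD25- cells and 0.103 and 0.0667 in KO non-Tregs, on either side of the other groups.

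Of the members known from lymphocyte development, *Ikzf1* went the other way. It was at 955 and 1040 CPM in WT non-Tregs, 970 and 901 CPM in KO non-Tregs and 902 and 885 CPM in KO FoxP3+CD25- cells. It was at 554 and 597 CPM in WT Tregs and at 584 and 552 CPM in KO Tregs. All 4 Treg libraries lay below all 6 others, and within each of these sets neighbouring groups overlapped. Group means were 997 ± 60.1, 935 ± 49.1, 893 ± 12.4, 575 ± 30.7 and 568 ± 22.8 CPM (SD, n = 2) in WT non-Tregs, KO non-Tregs, KO FoxP3+CD25- cells, WT Tregs and KO Tregs. Only the step from KO FoxP3+CD25- cells to WT Tregs was called.

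The log2 fold change of *Ikzf1* from non-Tregs to Tregs was −0.79 in WT (SE 0.11, FDR = 0.000729) and −0.72 in KO (SE 0.11, FDR = 0.00259), a difference of 0.07 (95% interval −0.26 to 0.41, FDR = 1). KO FoxP3+CD25- cells were higher than KO Tregs by 0.65 (SE 0.11, FDR = 0.00399). Against KO non-Tregs their value was −0.07 (SE 0.11, 95% interval −0.30 to 0.17, FDR = 0.94). These 2 Treg comparisons and those of KO FoxP3+CD25- cells with Tregs kept their calls for *Ikzf1* in every alternative run.

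*Ikzf3*, which like *Ikzf1* is expressed in mature lymphocytes, was called in fewer comparisons than *Ikzf1*. It was at 399 and 380 CPM in KO Tregs, 301 and 351 CPM in WT Tregs, and 349 and 301 CPM in KO FoxP3+CD25- cells. It was at 284 and 274 CPM in KO non-Tregs and at 194 and 221 CPM in WT non-Tregs. WT non-Tregs had the lowest libraries and KO Tregs the highest, with no overlap with the other groups, and WT Tregs and KO FoxP3+CD25- cells overlapped. The means, 389 ± 13.4, 326 ± 35.6, 325 ± 34.1, 279 ± 7.07 and 207 ± 19.1 CPM (SD, n = 2), formed a series in which no step between neighbours was called.

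*Ikzf3* was higher in Tregs than in non-Tregs by 0.65 on the log2 scale in WT (SE 0.12, FDR = 0.00479) and 0.48 in KO (SE 0.12, FDR = 0.0379). The WT call was lost without WT FoxP3-CD25- replicate 1 (0.55, FDR = 0.0681) and the KO call without any 1 of the KO FoxP3+CD25+, KO FoxP3-CD25- or WT FoxP3-CD25- libraries (6 of 10 such fits, 0.45 to 0.52, FDR up to 0.227). In KO FoxP3+CD25- cells it was higher than in WT non-Tregs by 0.65 (SE 0.12, FDR = 0.0411), a call lost without any 1 library other than those of WT FoxP3+CD25+ cells (8 of 10 fits, FDR up to 0.414) and without both libraries of WT replicate 1 (0.56, FDR = 0.216). Against WT Tregs the value was −0.01 (SE 0.12, 95% interval −0.27 to 0.26, FDR = 0.98), and against KO Tregs it was −0.26 (SE 0.12, FDR = 0.271), which was called with the mouse as a block (FDR = 0.0387, 15.1% of genes called). From WT to KO its log2 fold change was 0.43 in non-Tregs (SE 0.12, FDR = 0.281) and 0.25 in Tregs (SE 0.12, FDR = 1). Both KO libraries lay above both WT libraries in each sort, but neither value was called. How many of all genes separate in this way was not counted, and WT replicate 1 differed in sex from the KO libraries.

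*Ikzf5* was at 44.7 and 38.3 CPM in WT Tregs, 38.5 and 41.4 CPM in KO Tregs, 46.1 and 46.3 CPM in KO FoxP3+CD25- cells, 42.3 and 39.3 CPM in KO non-Tregs, and 44.6 and 41.9 CPM in WT non-Tregs. Only the KO FoxP3+CD25- libraries lay outside the range of the others, above it. No comparison was called, and the log2 fold changes of the 8 pairwise comparisons ran from −0.09 to 0.21. *Pstk*, whose reads may be counted with it, had 299 to 657 counts against 252 to 538 for *Ikzf5*.

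**Figure D4:**
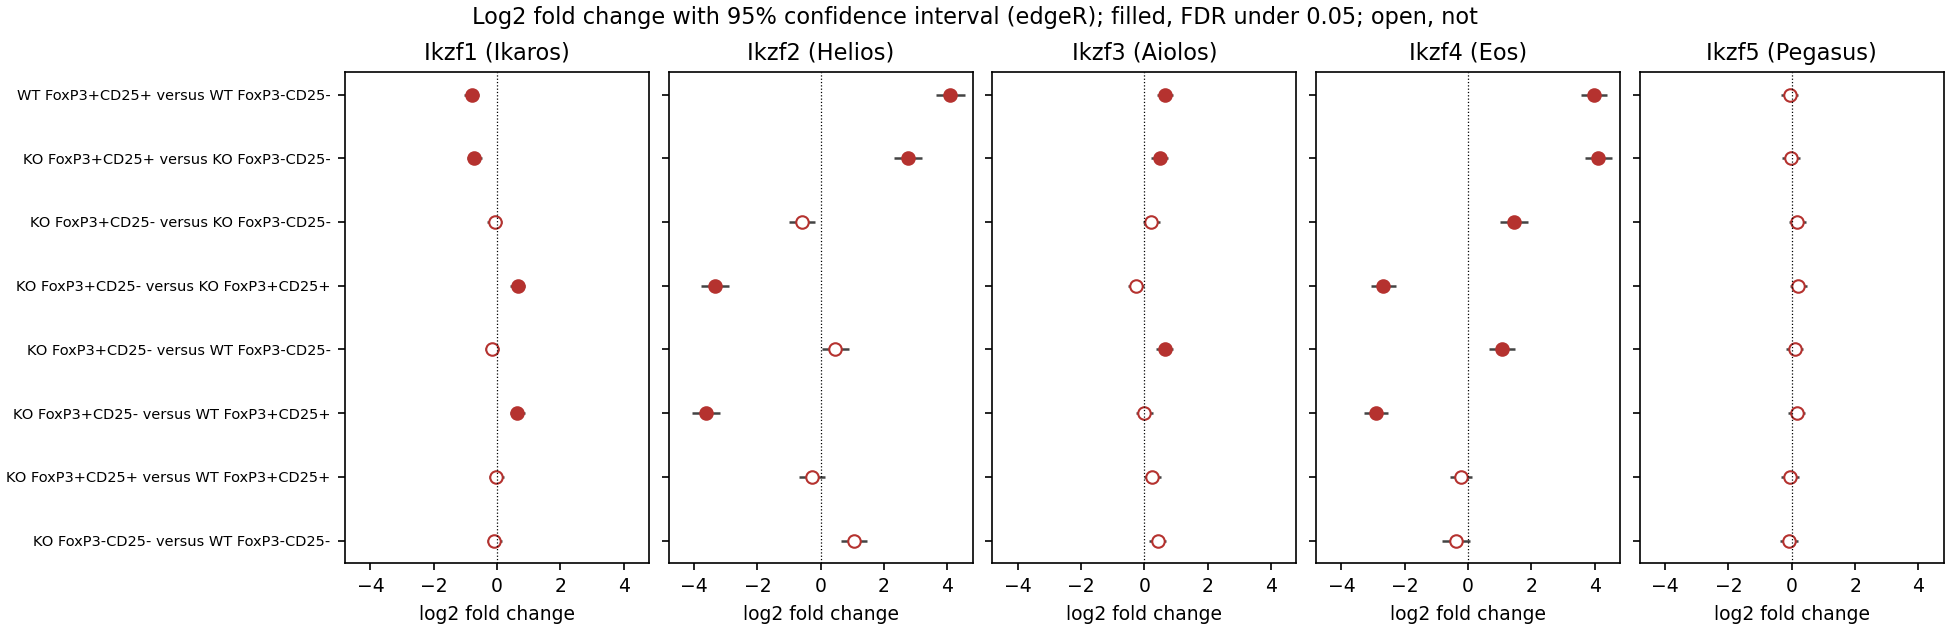
Log2 fold change (x axis) of each member in the 8 pairwise comparisons (y axis), first group minus second, with 95% intervals from edgeR as lines. Filled points have an FDR under 0.05: *Ikzf2* and *Ikzf4* reached 4.09 and 4.12, *Ikzf1* and *Ikzf3* stayed within 0.8 of 0, and no point was filled for *Ikzf5*.

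Levels were compared between members per kilobase of exon, for the 4 members with little exon overlap. Of the summed reads per exon length of *Ikzf1* to *Ikzf4*, *Ikzf1* made up 84.2% and 84.9% in WT non-Tregs, 78.6% and 77.8% in KO non-Tregs and 74.3% and 77.1% in KO FoxP3+CD25- cells. In Tregs its share was 34.5% and 40.0% in WT and 38.9% and 39.2% in KO. *Ikzf2* rose from 2.24% to 5.85% in the 6 other libraries to 29.9% to 38.3% in Tregs, and *Ikzf4* from 0.757% to 2.49% to 12.3% to 14.8%. In 1 Treg library, WT replicate 1, *Ikzf2* had the highest level per kilobase (106 CPM per kilobase against 95.8 for *Ikzf1*), and in the other 9 libraries *Ikzf1* had. The exon length is the union of all annotated exons, so the shares depend on which isoforms are expressed.

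**Figure D5:**
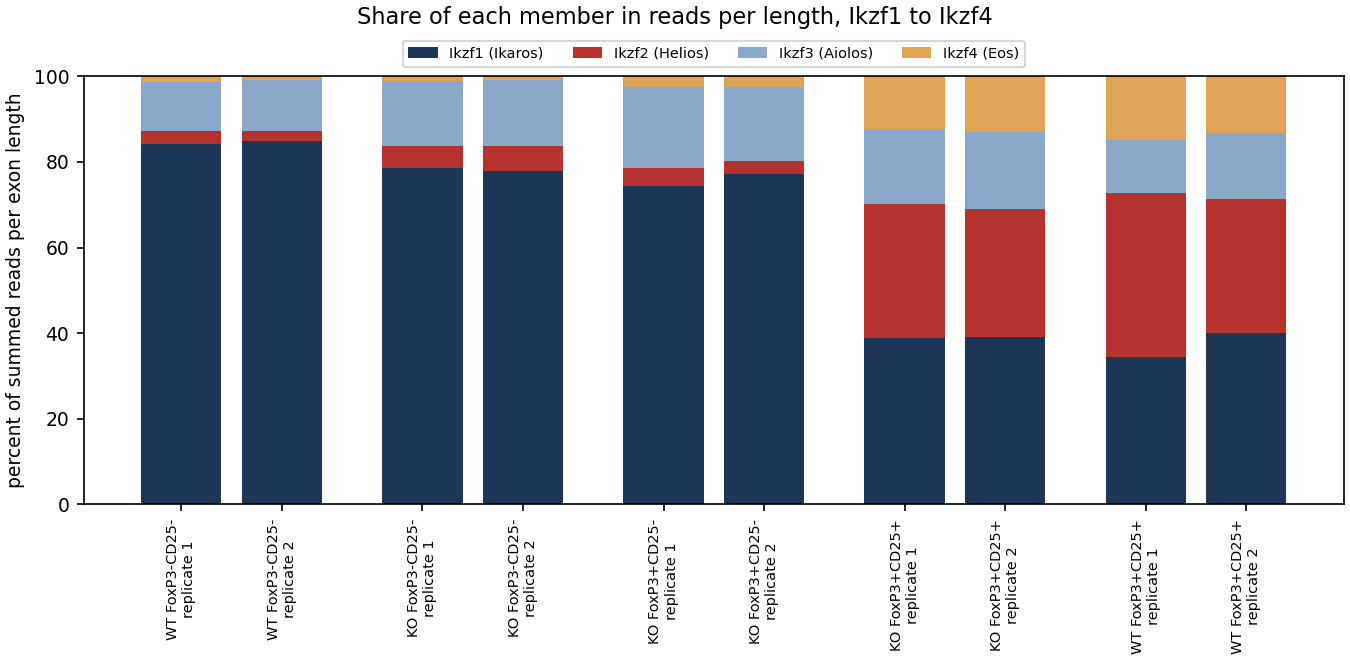
Share of *Ikzf1*, *Ikzf2*, *Ikzf3* and *Ikzf4* in their summed reads per exon length (y axis, percent) in each of the 10 libraries (x axis). *Ikzf1* made up at least 74.3% in the 6 libraries that were not Tregs and at most 40.0% in the 4 Treg libraries.

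Over the 10 libraries, log2 CPM of *Ikzf1* and *Ikzf2* had a Pearson correlation of −0.98, *Ikzf1* and *Ikzf4* of −0.97, and *Ikzf2* and *Ikzf4* of 0.93. *Ikzf3* was less closely tied to *Ikzf1* (−0.71), *Ikzf2* (0.70) and *Ikzf4* (0.71). The points share the contrast between 4 Treg libraries and 6 others, which any Treg gene would follow. Among all genes tested, the most alike in pattern were *Enc1* (0.99) and *Fam78a* (0.99) for *Ikzf1*, *Tmem158* (0.99) and *Ergic1* (0.99) for *Ikzf2*, *Cd81* (0.96) and *Pip5k1b* (0.96) for *Ikzf3*, *Mical3* (0.99) and *Ift80* (0.99) for *Ikzf4*, and *Usp32* (0.93) for *Ikzf5*. *Lrrc32*, which encodes the Treg surface protein GARP, was among the 5 most alike to *Ikzf4*.

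Genes for known partners of the family were called in 1 of the pairwise comparisons. Of 36 genes in 5 lists (the NuRD remodelling complex, SWI/SNF, the CtBP and Sin3 corepressors, the cereblon ubiquitin ligase through which Ikaros and Aiolos can be degraded, and the CK2 kinase and PP1 phosphatase that act on Ikaros), 35 were tested. None was called between Tregs and non-Tregs of either genotype, where 10.9% (WT) and 6.34% (KO) of all genes tested were called. In each genotype 3 of the 35 had an unadjusted p under 0.05 (8.57%), against 21.9% of all genes in WT and 16% in KO. Their largest log2 fold change there was 0.34 in size in WT and 0.30 in KO, and their median was 0.074 in WT and 0.0025 in KO, against −0.021 and −0.0012 over all genes tested. Of the 8 pairwise comparisons only that of KO FoxP3+CD25- cells with WT Tregs had calls. *Gatad2a*, a NuRD subunit, was lower (−0.45, SE 0.12, FDR = 0.0414) and *Dda1*, a subunit of the cereblon ligase, higher (0.34, SE 0.10, FDR = 0.0475). In that comparison 11.2% of all genes tested were called. An unadjusted p under 0.05 was found there for 14.3% of the 35 and for 23.6% of all genes.

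Of 7 factors listed as acting with FoxP3 in Tregs, *Foxp3*, *Gata1*, *Gata3* and *Irf4* were higher and *Lef1* and *Satb1* lower in WT Tregs than in WT non-Tregs, and the other factor was not called, 6 of 7 against 10.9% of all genes. In KO the calls were *Foxp3* and *Gata1* higher and *Lef1* lower, 3 of 7 against 6.34%. The *Foxp3* calls are set by the sort on its reporter. Between KO FoxP3+CD25- cells and KO non-Tregs *Foxp3* (log2 fold change 3.55, SE 0.25, FDR = 0.00016) was the 1 of 7 called, against 1.67% of all genes. In the same comparison *Satb1* had a value of 0.52 (FDR = 0.16), *Lef1* of 0.36 (FDR = 0.386) and *Irf4* of −1.04 (FDR = 0.489), beside 1.44 for *Ikzf4*. The median log2 fold change of the 7 factors there was 0.36, the value of *Lef1*, against 0.0060 over all genes tested. The list holds *Foxp3*, set by the sort, and *Satb1*, the targeted gene, and mixes factors higher and lower in Tregs. Its median therefore cannot show a shift of the factors as a set.

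The RefSeq promoter table (GRCm38.p6) held windows for *Ikzf1* and *Ikzf5*, from 250 bases before to 50 after the start. The Ikaros core letters TGGGAA, found on either strand in 25.6% of all 32851 windows, were in none of the windows of these members. The forkhead letters TGTTTAC, found in 3.65% of all windows, were in none of them either. The same held for the RUNX letters TGTGGT (16.8% of all windows) and the cyclic AMP element TGACGTCA (1.79%). STAT letters TTCNNNGAA (8.3% of all windows) occurred in an *Ikzf1* window and in that of *Ikzf5*. NFAT letters TGGAAA (21.4%) occurred in the *Ikzf5* window.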

How the data were processed

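RNA-seq libraries were made from sorted spleen CD4+ T cells with the NEBNext Ultra kit and sequenced with 50-base reads. The authors aligned the reads with HISAT2 (version 2.1.0, per the labels) to mm10 and counted them per gene symbol with HTSeq (version 0.11.1, per the labels); the deposited values are raw counts, without normalization or filtering. Of all reads tallied in a library, 26.0% to 28.5% fell on genes, and HTSeq's tallies of unassigned reads were left out of library sizes. Reads of overlapping genes may be left out or assigned to either gene, depending on the strand and overlap settings, which are not given in the sources used here.

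Counts were analysed with edgeR (version 4.0.16) in R (version 4.3.3): filterByExpr with a minimum count of 10, TMM scaling and the bias-adjusted quasi-likelihood fit with a mean for each of the 5 groups. Tests were two-sided, adjusted by Benjamini-Hochberg over 13796 genes. SE is the size of the log2 fold change over the root of F, and intervals use the moderated degrees of freedom. The steps were tested on simulated data. With 2 libraries a side the smallest exact permutation p is 0.333, so no such test was run. A gene without a count is below 3 counts, 0.242 to 0.492 CPM before scaling, which covers counting error only.

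Within a genotype, libraries of the same number deviated together from their group means (correlation over genes, which are not independent, 0.303 in WT and 0.421 to 0.445 in KO), and the labels imply that they come from 1 mouse. Between genotypes, where the mice differ, the correlations were −0.0114 to 0.114. A fit with the mouse as a block was therefore run beside the fit without it.

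Named genes are the 5 members, *Satb1*, *Foxp3*, *Il2ra* and *Cd4* as checks, the genes most alike in pattern to each member, and called genes of fixed lists; *Gm29114*, *Gm26876* and *Pstk* were added because they overlap members, *Xist* to check sex, and *Cd8a* and *Lyz2* as markers of other cells, after their values were seen. The members and lists were chosen with earlier results of these data known. Alternatives were other filters, RLE or no scaling factors, edgeR's legacy quasi-likelihood and likelihood ratio tests, DESeq2 (version 1.42.0), the compared libraries alone, replicate blocks, each library left out, and both libraries of WT replicate 1 left out. Finger sequences were found by pattern in the first part of the GENCODE coding sequences. Positions are 1-based.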

Additional observations from a re-analysis of the deposited data

How the results depend on the processing

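With 2 libraries a group, small differences were not detectable, and a level under the 3-count floor (0.242 to 0.492 CPM) would not have been either. Of the log2 values of the 5 genes under the alternatives, 861 kept their direction and their side of FDR 0.05, 18 gained a call, 24 lost one and 22 changed sign, none of the last called in the main fit. What moved the counts below was not tested.

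Fitting the mouse as a replicate block, within genotype, raised the genes of the family called from 1 to 2 between KO FoxP3+CD25- and KO FoxP3-CD25- cells and from 0 to 1 in the difference between genotypes. Apart from these and the *Ikzf3* call between KO FoxP3+CD25- and KO FoxP3+CD25+ cells, the pairing changed no call of the 5 genes. A block on the replicate number across genotypes gave 2 and 1 for the same comparisons and 1 (0 without it) between KO and WT non-Tregs. That last count was also 1 with no filter on low counts, with library size alone, with DESeq2, with the likelihood ratio test and with the compared libraries alone. The difference between genotypes also had 1 gene called with no filter, DESeq2 and the likelihood ratio test, and the KO FoxP3+CD25- against KO FoxP3-CD25- comparison had 2 with no filter. Without both libraries of WT replicate 1, 0 genes of the family differed by the test in KO FoxP3+CD25- cells against non-Tregs of WT mice, compared with 2 when they were kept. Leaving out 1 library gave 0 to 1 in KO FoxP3+CD25- against KO FoxP3-CD25- cells, 0 to 2 against WT FoxP3-CD25- cells, 0 to 1 between KO and WT non-Tregs and 0 to 1 for the difference.

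The signs that changed belonged to log2 values near 0. *Ikzf3* in KO FoxP3+CD25- against WT FoxP3+CD25+ cells (−0.0077) became 0.000366 with a filter of CPM above 1 in at least 2 libraries, 0.0019 with library size alone, and −0.12 to 0.11 with 1 library left out. Between KO and WT Tregs, *Ikzf1* became 0.0090 with library size alone and ran from −0.0701 to 0.0323 with 1 library left out, and *Ikzf5* became 0.064 without WT replicate 1 and ran from −0.16 to 0.06. *Ikzf5* between Tregs and non-Tregs ran from −0.17 to 0.06 in WT and −0.0862 to 0.0247 in KO, and the difference between genotypes ran from −0.11 to 0.43 for *Ikzf4* and −0.0872 to 0.142 for *Ikzf5*.

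Counts over all genes moved more. With other tests, filters, scalings or blocks on all libraries or on the compared ones, genes called ran from 1076 to 2634 (main 1504) between WT Tregs and non-Tregs, 837 to 1649 (874) between those of KO, 228 to 786 (230) between KO FoxP3+CD25- and KO FoxP3-CD25- cells, 959 to 2090 (967) against KO Tregs, 98 to 306 (106) against WT non-Tregs, 926 to 2154 (1548) against WT Tregs, 0 to 11 (1) between KO and WT Tregs, 19 to 143 (20) between KO and WT non-Tregs, and 0 to 148 (0) for the difference.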
